A study of Mus musculus with 28 samples.

Results

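DN4 thymocytes that carried the Lmo2 transgene without intact Ldb1 were set against wild type DN4 thymocytes, to ask what the transgene leaves in place once Ldb1 is deleted. The comparison used 9 of the 28 RNA sequencing libraries of the series, taken by their sample titles: 5 titled Lmo2tg; Ldb1-KO DN4 (called Ldb1-KO DN4) and 4 titled wild type DN4, of C57BL/6 mice. Both groups were sorted as DN4, the last stage of thymocytes that display neither CD4 nor CD8. For context, 5 Lmo2tg DN4 libraries, which carry the transgene with Ldb1 intact, are given beside them, as are 5 Ldb1-KO and 4 wild type libraries of the preceding DN2/3 stage. The labels name floxed Ldb1 alleles, an EYFP reporter at Rosa26 and mice with Cre under Lck, Rag1 or IL-7Ra. Which Cre deleted Ldb1 in which sample, the promoter of the transgene and the ages of the mice are not stated in the labels. Separate animals are not stated for the replicates. The p-values therefore speak of the spread among these libraries only, which may be technical in part. Sex genes, given below, differ among the libraries of each group. The libraries of wild type carry another style of name than all transgenic libraries, so library series and genotype cannot be told apart.

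Lmo2 is a small adaptor protein with LIM domains and no DNA-binding part of its own. In blood stem and progenitor cells it joins Ldb1, which can pair with itself, to the DNA-binding factors Tal1 or Lyl1, E proteins and Gata factors. Lmo2 is normally silenced when thymocytes commit to the T lineage, and its forced expression in thymocytes is a cause of T-cell leukemia in mice and people. DN4 cells have just passed the pre-TCR checkpoint, divide fast and go on to the double-positive stage.

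Ldb1-KO DN4 libraries held 31.3 to 67.9 M counts, Lmo2tg DN4 libraries 32.7 to 60.9 M and wild type DN4 libraries 67.8 to 81.7 M. A label of cell type reads CD4 T cells for every sample. The DN2/3 marker Il2ra averaged 44.8 CPM (counts per M counts after TMM scaling, not divided by gene length) in Ldb1-KO DN4 and 39.6 CPM in wild type DN4, against 1396 CPM in Ldb1-KO DN2/3 and 1512 CPM in wild type DN2/3, the direction the stage names give. Among Ldb1-KO DN4 libraries, replicates 1 to 3 held Ddx3y and no Xist at 1 CPM or more, and replicates 4 and 5, the 2 shallower ones, the reverse. Of the wild type DN4 libraries, 3 held both genes and 1 held Ddx3y only. Depth and sex therefore split the Ldb1-KO DN4 libraries the same way, and the count of all calls and those of the leading lists are also given with each side of that split alone. In the principal component analysis of the 14 DN4 libraries, the first component held 45.9% of the variance. On it, Ldb1-KO libraries lay at −6.03 to 12.86, Lmo2tg libraries at 18.62 to 93.43 and wild type libraries at −90.32 to −76.06, with no overlap.

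**Figure D1:**
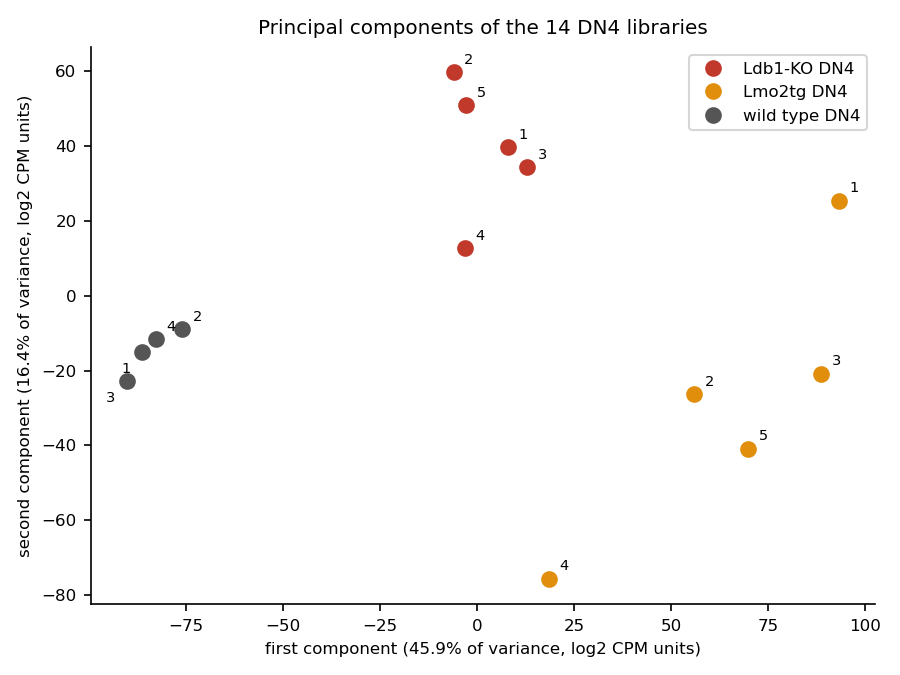
Position of each DN4 library (points, numbered by replicate) on the first and second principal components of log2 CPM, by group. The 5 Ldb1-KO libraries lie between the 5 Lmo2tg and the 4 wild type libraries on the first component, and on the second component they run from 59.58 (replicate 2) to 12.70 (replicate 4).

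Lmo2 was expressed in every Ldb1-KO DN4 library at the level of the transgenic controls. Lmo2 (ENSMUSG00000032698.15, chromosome 2, 103957986 to 103981878, mm10) had 53.2, 50.2, 41.2, 36.7 and 45.7 CPM in Ldb1-KO DN4 replicates 1 to 5, 36.1 to 68.9 CPM in Lmo2tg DN4 and 0, 0.172, 0.0634 and 0.0761 CPM in wild type DN4. The lowest Ldb1-KO library lay far above the highest wild type library. Its log2 fold change against wild type was 9.14 ± 0.40 (SE; edgeR quasi-likelihood F-test, adjusted p = 2.41e-15), and between Ldb1-KO and Lmo2tg DN4 it was 0.01 ± 0.23 (edgeR adjusted p = 0.986).

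Ldb1 was strongly reduced in all 5 Ldb1-KO DN4 libraries but not to the same degree. Ldb1 (ENSMUSG00000025223.15, chromosome 19, 46031570 to 46045214, minus strand) had 21.4, 6.11, 33.9, 54.7 and 12.2 CPM in Ldb1-KO DN4 replicates 1 to 5, 247 to 428 CPM in Lmo2tg DN4 and 358.7, 335.4, 379.5 and 358.6 CPM in wild type DN4. The remaining reads were 1.71% (replicate 2), 3.40% (replicate 5), 5.97% (replicate 1), 9.48% (replicate 3) and 15.3% (replicate 4) of the wild type mean. The fold change on the log2 scale was −3.81 ± 0.37 (edgeR adjusted p = 4.56e-08). Whether those reads come from undeleted cells or from exons outside the deletion cannot be told apart from gene counts. On the second principal component the 5 Ldb1-KO libraries stood in the reverse of this order, from 59.58 in replicate 2 through 50.77, 39.64 and 34.27 to 12.70 in replicate 4. In these bulk samples, fewer cells with a transcript and less of it per cell cannot be told apart.

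A large residual change from wild type remained. Of 14371 genes tested, 4680 passed an adjusted p below 0.05 between Ldb1-KO and wild type DN4, which is 32.6%. Of these, 2615 (18.2%) were higher and 2065 (14.4%) lower in Ldb1-KO DN4, and 6268 genes had an unadjusted p below 0.05. The rises were larger than the falls: 1341 genes (9.33%) rose and 200 (1.39%) fell by over 2-fold. Genes called higher had a median of 21 CPM in Ldb1-KO and 9.17 CPM in wild type DN4, and those called lower 46.2 CPM in Ldb1-KO and 64.3 CPM in wild type DN4. The median log2 fold change over all genes tested was 0.03. The 5 Ldb1-KO and 4 wild type libraries did not overlap for 4760 genes (33.1%). Lmo2tg DN4 against the same wild type libraries gave 7532 calls (52.4%; 28.9% higher and 23.5% lower), and Ldb1-KO against Lmo2tg DN4 gave 2092 (14.6%; 5.85% higher and 8.71% lower), but these comparisons share libraries with the first and are given side by side only. Leaving out wild type replicate 3 moved the number of calls to 2855 (1653 higher and 1202 lower), of which 2814 were among the 4680. With Ldb1-KO replicates 1 to 3 alone there were 4785 calls, and with replicates 4 and 5 alone 995.

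Some genes of the progenitor programme that Lmo2 is known to maintain rose in Ldb1-KO DN4, and did so unevenly between libraries. In the list of stem and progenitor regulators 10 of 26 tested members were higher and 2 lower (median log2 fold change 0.58, beside 18.2% of all genes called higher). Ldb1-KO replicates 1 to 3 alone also gave 10 higher, and replicates 4 and 5 alone 6. Hhex, a homeobox factor of blood progenitors (chromosome 19, 37434810 to 37440731), had 8.74, 0.338, 17.2, 16.3 and 2.83 CPM in Ldb1-KO DN4, 18.8 to 153 CPM in Lmo2tg DN4 and 0, 0.0858, 0.254 and 0 CPM in wild type DN4. All 5 Ldb1-KO libraries were above the wild type libraries, with replicate 2 close to them. Its log2 fold change was 6.79 ± 0.98 against wild type (edgeR adjusted p = 2.74e-05) and −2.85 ± 0.63 against Lmo2tg (edgeR adjusted p = 0.00272).

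Lyl1, the basic helix-loop-helix partner of Lmo2 in early thymocytes, had 9.48, 1.47, 13.1, 18.3 and 3.96 CPM in Ldb1-KO DN4, 11.2 to 72.6 CPM in Lmo2tg DN4 and 0.0586, 0.429, 0.317 and 0.406 CPM in wild type DN4. Ldb1-KO and wild type libraries did not overlap, the upper Ldb1-KO libraries lay within the Lmo2tg range, and replicate 2 was again the lowest of the Ldb1-KO libraries. Lyl1 rose by 4.91 ± 0.72 on the log2 scale (edgeR adjusted p = 3.03e-05). Nfe2, a leucine-zipper factor of megakaryocytes and progenitors, had 23.8, 1.65, 47.9, 25.4 and 3.18 CPM in Ldb1-KO DN4, 17.2 to 183 CPM in Lmo2tg DN4 and 0.647 to 1.29 CPM in wild type DN4 (log2 fold change 4.33 ± 0.80, edgeR adjusted p = 0.000461). Erg, an ETS factor of stem cells, had 7.93, 0.235, 14.2, 16.3 and 1.56 CPM in Ldb1-KO DN4 and 0.234 to 0.666 CPM in wild type DN4. Replicate 2 was here no higher than wild type, while the rise over the group was 4.21 ± 0.84 (log2, edgeR adjusted p = 0.000965). Mn1, a transcriptional coregulator and leukemia oncogene, rose by 4.87 ± 0.78 (log2, edgeR adjusted p = 0.000102) at a low level of 1.55 ± 1.44 CPM (SD, n = 5) in Ldb1-KO and 0.0509 ± 0.0652 CPM (SD, n = 4) in wild type DN4. Kit, the stem cell factor receptor, had 24.8 to 63.3 CPM in Ldb1-KO and 16.7 to 26.4 CPM in wild type DN4, and its call was lost without any of 5 single libraries (Ldb1-KO replicates 1 and 3, wild type replicates 1, 3 and 4). The 2 members called lower, of which 1 was left in 7 of the 9 fits that each left out a DN4 library of either group, were Gfi1b, a repressor of erythroid and megakaryocyte cells, at 0.211 CPM in Ldb1-KO and 1.04 CPM in wild type DN4, and Hoxb4 at 0.585 CPM in Ldb1-KO and 1.12 CPM in wild type DN4.

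Hoxa9, a homeobox oncogene of blood progenitors, differed from both other groups. It had 2.49, 2.5, 8.45, 2.70 and 1.12 CPM in Ldb1-KO DN4, 0 to 0.129 CPM in Lmo2tg DN4 and 0.0317 to 0.254 CPM in wild type DN4. The Ldb1-KO libraries lay above all libraries of both other groups. The log2 fold change was 4.69 ± 0.86 against wild type (edgeR adjusted p = 0.000419) and 6.39 ± 0.91 against Lmo2tg (edgeR adjusted p = 2.53e-05). The gap to Lmo2tg was shared by Hoxa3, Hoxa5 and Hoxa7, at 0 to 0.182 CPM in Lmo2tg DN4. These had 1.03 to 12.8 CPM in Ldb1-KO and 0.674 to 7.35 CPM in wild type DN4, and each overlapped between those groups. Meis1, a cofactor of Hoxa9, was at 0 to 0.638 CPM in Ldb1-KO DN4 and 0 to 0.0572 CPM in wild type DN4, with overlapping groups (log2 fold change 3.02 ± 0.99, edgeR adjusted p = 0.0256). Its call was lost without Ldb1-KO replicate 3 or without wild type replicate 1, 3 or 4. Of its stretches of 101 bases (the read length), 15.4% also occur in other genes of the annotation.

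**Figure D2:**
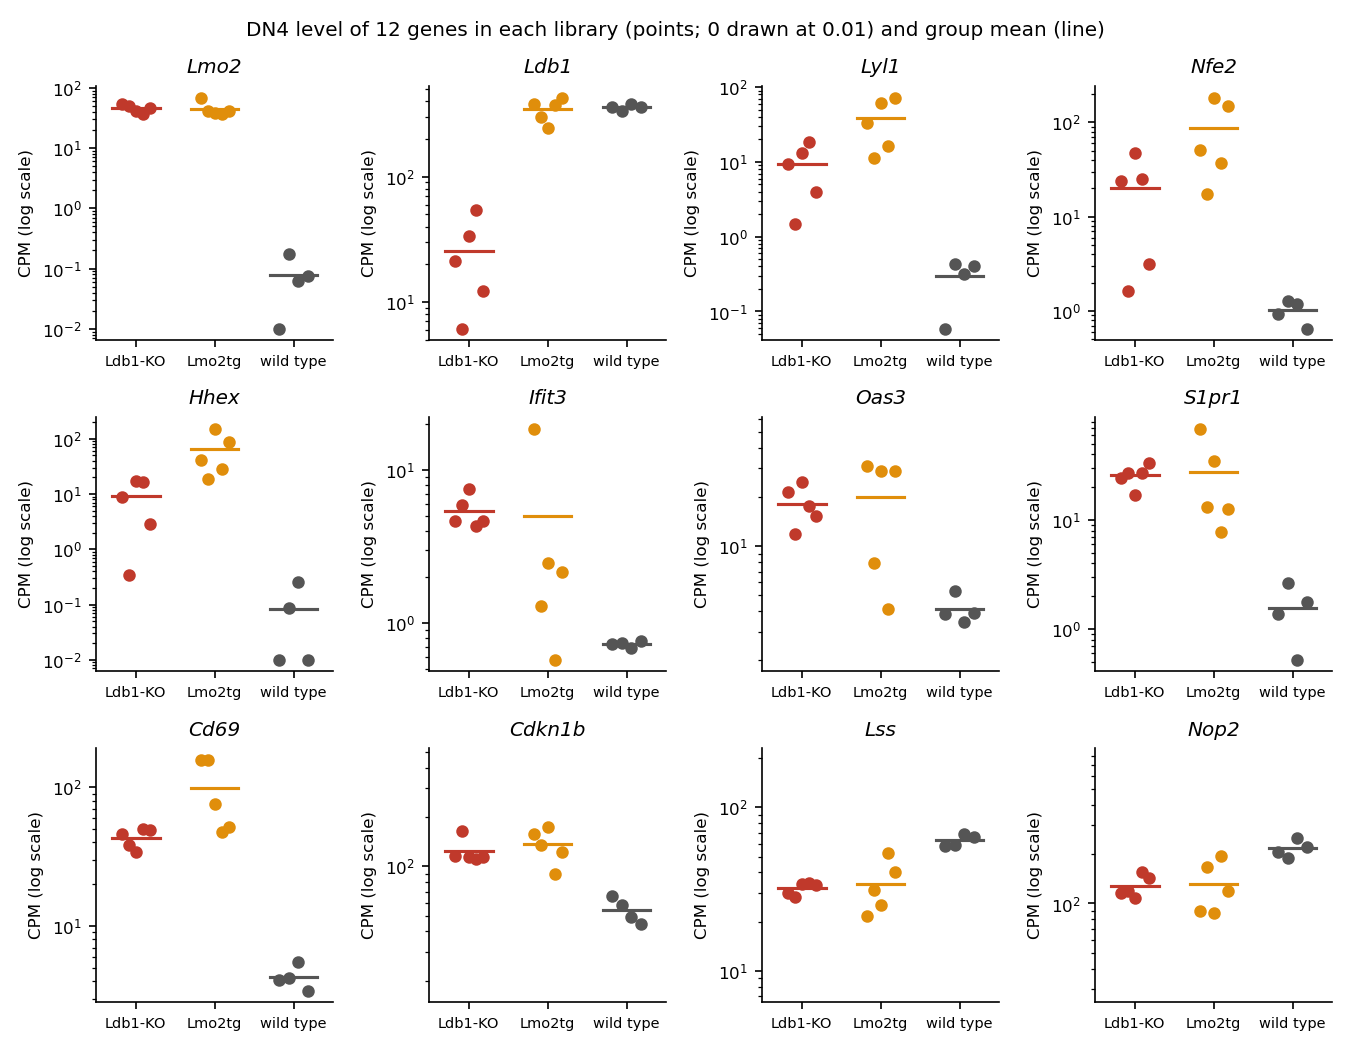
CPM (log axis) of 12 genes in each DN4 library (points, in replicate order from left to right within a group; 0 drawn at 0.01) with the group mean (line), for Ldb1-KO, Lmo2tg and wild type. Lmo2 stands at the same height in both transgenic groups, Lyl1, Nfe2 and Hhex spread widely among Ldb1-KO libraries with replicate 2 lowest, and Cd69 and S1pr1 spread little.

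Several of the largest rises shared that spread. Clec4e, a C-type lectin of myeloid cells, had 10.9, 0.206, 17.1, 19.8 and 3.49 CPM in Ldb1-KO DN4, 8.30 to 122 CPM in Lmo2tg DN4 and 0 to 0.0507 CPM in wild type DN4 (log2 fold change 9.30 ± 1.39, edgeR adjusted p = 4.06e-05). Mdga1, a membrane-anchored adhesion protein, had 46.3, 0.323, 59.6, 131 and 12.5 CPM in Ldb1-KO DN4, 53.3 to 278 CPM in Lmo2tg DN4 and 0.0951 to 0.293 CPM in wild type DN4 (log2 fold change 8.23 ± 1.09, edgeR adjusted p = 7.83e-06). Gpr34, a lysophospholipid receptor, had 17.9, 0.779, 35.6, 35.3 and 5.29 CPM in Ldb1-KO DN4, 25.3 to 177 CPM in Lmo2tg DN4 and 0.0634 to 0.178 CPM in wild type DN4 (log2 fold change 7.15 ± 1.11, edgeR adjusted p = 6.65e-05). For all of them, Ldb1-KO replicates 2 and 5, which held the least Ldb1, were the lowest libraries. Cpa3, a mast cell protease also made by early progenitors, had 151, 2.53, 370.0, 196 and 30.7 CPM in Ldb1-KO DN4 and 1.76 to 5.45 CPM in wild type DN4. Its Ldb1-KO replicate 2 lay within the wild type range.

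The 5 Ldb1-KO libraries stood in the very order of their Ldb1 level for 156 of 14370 other genes tested (1.09%). The same order held for 38 of 1341 genes called higher by over 2-fold (2.83%), among them Clec4e, Mdga1 and Erg. Replicate 2 was the lowest Ldb1-KO library for 16.1% of all genes tested, for 6 of the 10 stem and progenitor regulators called higher, for 7 of 25 interferon genes and for 3 of 15 homing genes called higher. These counts describe 5 libraries and carry no test. The part of the remaining Ldb1, or of undeleted cells, in the rise of the progenitor genes was not tested.

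Not every large rise followed that pattern. Adam12, a membrane metalloprotease, had 6.76, 23.2, 2.12, 1.10 and 7.29 CPM in Ldb1-KO DN4, with replicate 2 highest, 0 to 1.22 CPM in Lmo2tg DN4 and 0 to 0.0507 CPM in wild type DN4. Its log2 fold change was 8.98 ± 1.44 against wild type (edgeR adjusted p = 0.000144) and 4.38 ± 0.97 against Lmo2tg (edgeR adjusted p = 0.00323). Apol7b, an apolipoprotein L gene, had 6.07, 15.3, 5.42, 2.47 and 8.35 CPM in Ldb1-KO DN4 and 0 to 0.0507 CPM in wild type DN4, but 54.2% of its stretches of 101 bases (the read length) also occur in other genes of the annotation.

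A further set of large rises had like ranges in both transgenic groups, and most of these genes share sequence with others. Srp54b, which encodes a signal recognition particle subunit, had 33.5 to 36.8 CPM in Ldb1-KO DN4, 29.3 to 35.1 CPM in Lmo2tg DN4 and 0.0380 to 0.146 CPM in wild type DN4, and shares 87.5% of its stretches, most of all with Srp54a, which rose by 4.65 ± 0.18 itself (log2, edgeR adjusted p = 2.48e-16). Entpd4, a nucleotide-hydrolysing enzyme of the Golgi, had 35.2 to 40.2 CPM in Ldb1-KO DN4, 41.0 to 59.4 CPM in Lmo2tg DN4 and 0.0439 to 0.315 CPM in wild type DN4, and shares 100% of its stretches, most of all with Entpd4b. Btg3, an antiproliferative gene, had 3.67 to 7.66 CPM in Ldb1-KO DN4 and 0.254 to 0.469 CPM in wild type DN4, with 25% shared. The microRNA gene Mir684-1 had 24.4 to 66.5 CPM in Ldb1-KO DN4, 27.6 to 83.5 CPM in Lmo2tg DN4 and 0.216 to 0.629 CPM in wild type DN4. The sources used here do not say how reads with more than 1 match were counted, so which copy these counts belong to is uncertain. For these 4 genes the difference splits the libraries exactly as the library series does.

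Falls were ranked among called genes without overlap of libraries and with 5 CPM or more in the higher group, predicted genes left out. The largest of them after Ldb1 lay within 1 Mb of it on the chromosome. Tmem180 (also Mfsd13a, a membrane transporter-like protein; chromosome 19, 46356877 to 46375254) had 4.07, 2.20, 2.13, 3.38 and 2.43 CPM in Ldb1-KO DN4, 0.547 to 18.9 CPM in Lmo2tg DN4 and 32.0, 29.7, 33.5 and 31.9 CPM in wild type DN4. The Ldb1-KO libraries lay well below wild type, while Lmo2tg libraries spanned the whole range under it (log2 fold change against wild type −3.48 ± 0.81, edgeR adjusted p = 0.00309). Ak4, a mitochondrial adenylate kinase, had 1.75 to 2.64 CPM in Ldb1-KO DN4, 1.58 to 6.03 CPM in Lmo2tg DN4 and 9.57 to 19.1 CPM in wild type DN4 (log2 fold change −2.54 ± 0.30, edgeR adjusted p = 1.21e-06). Adam11, a catalytically inactive Adam family member, had 0.561 to 2.01 CPM in Ldb1-KO DN4 and 4.28 to 15.4 CPM in wild type DN4 (log2 fold change −2.73 ± 0.58, edgeR adjusted p = 0.00163). Lmo2tg DN4 had 0.801 to 2.61 CPM of Adam11.

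Some other falls were shallower than in Lmo2tg DN4. Arhgap32, a GTPase-activating protein, had 4.77, 4.67, 4.63, 4.55 and 2.93 CPM in Ldb1-KO DN4, 0 to 0.223 CPM in Lmo2tg DN4 and 16.0, 16.4, 17.1 and 15.9 CPM in wild type DN4. The 3 groups did not overlap, with Ldb1-KO between the others. The fall was −1.92 ± 0.45 on the log2 scale against wild type (edgeR adjusted p = 0.00301), beside a log2 fold change of 5.53 ± 0.59 against Lmo2tg (edgeR adjusted p = 5.22e-07). Sh2b2, an adaptor of cytokine receptor signalling, had 1.15 to 3.80 CPM in Ldb1-KO DN4, 0 to 0.527 CPM in Lmo2tg DN4 and 7.56 to 10.3 CPM in wild type DN4. Fam163b had 7.73 to 20.5 CPM in Ldb1-KO DN4, 0.322 to 5.53 CPM in Lmo2tg DN4 and 23.8 to 70.1 CPM in wild type DN4 (log2 fold change against wild type −1.82 ± 0.54, edgeR adjusted p = 0.0132), a call that was lost without wild type replicate 4. Lhfpl2 lay at 1.12 to 3.59 CPM in Ldb1-KO DN4, 0.129 to 1.29 CPM in Lmo2tg DN4 and 8.06 to 10.2 CPM in wild type DN4. Between Ldb1-KO and Lmo2tg DN4 all 4 of these genes passed the test, with edgeR adjusted p from 5.22e-07 (Arhgap32) to 0.0357 (Lhfpl2). The falls of Wdfy4 and Ppp1r1b were not set apart in this way, as their Ldb1-KO and Lmo2tg ranges overlapped. Wdfy4, a factor of antigen cross-presentation in dendritic cells, had 3.11 to 9.62 CPM in Ldb1-KO DN4, 0.383 to 9.65 CPM in Lmo2tg DN4 and 22.2 to 29.7 CPM in wild type DN4. The calls of Lhfpl2 and Wdfy4 against wild type were lost with Ldb1-KO replicates 1 to 3 alone. Ppp1r1b, a phosphatase inhibitor, had 1.53 to 2.14 CPM in Ldb1-KO DN4, 0.869 to 7.68 CPM in Lmo2tg DN4 and 2.77 to 11.4 CPM in wild type DN4 (log2 fold change against wild type −1.87 ± 0.50, edgeR adjusted p = 0.00738).

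Of the 23 gene lists, the interferon response had the largest share of rises. Of 33 tested members 25 rose and 0 fell (median log2 fold change 1.14, against 0.03 over all genes tested and 18.2% called higher). These genes are switched on through the interferon-stimulated response element in their promoters, to which interferon regulatory factors bind. Promoters of 24 of the 33 members were found in the RefSeq table (GRCm38.p6). The 250 bases before the start held the core GAAANNGAAA, on either strand, in 13 of these 24 (54.2%), in 8 of 16 members called higher (50%) and in 346 of 10723 tested genes (3.23%). The stretches around it are shown for 5 members whose levels follow here or, for Trim30a, with its chromosomal window, 5′ to 3′ on the gene's own strand, with the core in capitals; where it lies on the other strand it reads TTTCNNTTTC. Ifit3 is at chr19:34583343-34583446 (plus), Ifit1 at chr19:34640755-34640843 (plus), Oas3 at chr5:120777695-120777764 (minus), Rsad2 at chr12:26456533-26456602 (minus) and Trim30a at chr7:104465194-104465259 (minus).
Ifit3: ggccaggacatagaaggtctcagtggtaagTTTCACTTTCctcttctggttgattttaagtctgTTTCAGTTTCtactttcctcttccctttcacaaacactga
Ifit1: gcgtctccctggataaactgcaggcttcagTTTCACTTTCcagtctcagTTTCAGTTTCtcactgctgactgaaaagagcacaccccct
Oas3: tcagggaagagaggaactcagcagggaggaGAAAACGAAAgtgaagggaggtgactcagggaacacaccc
Rsad2: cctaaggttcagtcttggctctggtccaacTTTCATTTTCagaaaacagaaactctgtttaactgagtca
Trim30a: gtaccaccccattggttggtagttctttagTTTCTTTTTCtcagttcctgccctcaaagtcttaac

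Ifit3, an antiviral RNA-binding protein, had 4.67, 5.88, 7.5, 4.29 and 4.61 CPM in Ldb1-KO DN4, 0.574 to 18.6 CPM in Lmo2tg DN4 and 0.732, 0.744, 0.682 and 0.761 CPM in wild type DN4. All 5 Ldb1-KO libraries were over the wild type libraries, which lay close together, and the Lmo2tg libraries spread from below wild type to above Ldb1-KO. The log2 fold change against wild type was 2.88 ± 0.65 (edgeR adjusted p = 0.00231). Of its stretches 31.3% occur elsewhere, most of all in Ifit3b. Ifit1, whose promoter holds a pair of cores, had 8.42, 9.21, 14.8, 4.87 and 7.48 CPM in Ldb1-KO DN4 and 1.4 to 2.23 CPM in wild type DN4 (log2 fold change 2.44 ± 0.64, edgeR adjusted p = 0.00653). Oas3, an oligoadenylate synthase that senses double-stranded RNA, had 21.5, 11.9, 24.7, 17.5 and 15.4 CPM in Ldb1-KO DN4, 4.14 to 30.9 CPM in Lmo2tg DN4 and 3.85, 5.35, 3.42 and 3.89 CPM in wild type DN4 (log2 fold change 2.14 ± 0.47, edgeR adjusted p = 0.00202).

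Rsad2, the antiviral enzyme viperin, had 6.20 to 15.9 CPM in Ldb1-KO DN4 and 1.47 to 2.52 CPM in wild type DN4. Irf7, the regulator that amplifies interferon production, had 20.01 to 35.4 CPM in Ldb1-KO DN4, 8.74 to 65.3 CPM in Lmo2tg DN4 and 7.40 to 7.79 CPM in wild type DN4 (log2 fold change 1.81 ± 0.38, edgeR adjusted p = 0.00135). Mx2, a dynamin-like antiviral protein, rose by 2.20 ± 0.43 on the log2 scale (edgeR adjusted p = 0.000859). In both genes every Ldb1-KO library was above every wild type library. Not all classical members moved: Isg15 had 8.37 to 16.4 CPM in Ldb1-KO and 6.30 to 7.20 CPM in wild type DN4 with an edgeR adjusted p of 0.0891, Stat2 had a log2 fold change of 0.23, and Bst2 one of −0.38. Without wild type replicate 3 the number of members called higher was 13 of 33, from the 14 DN4 libraries alone it was 13 as well, with Ldb1-KO replicates 1 to 3 alone 24 and with replicates 4 and 5 alone 5.

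**Figure D3:**
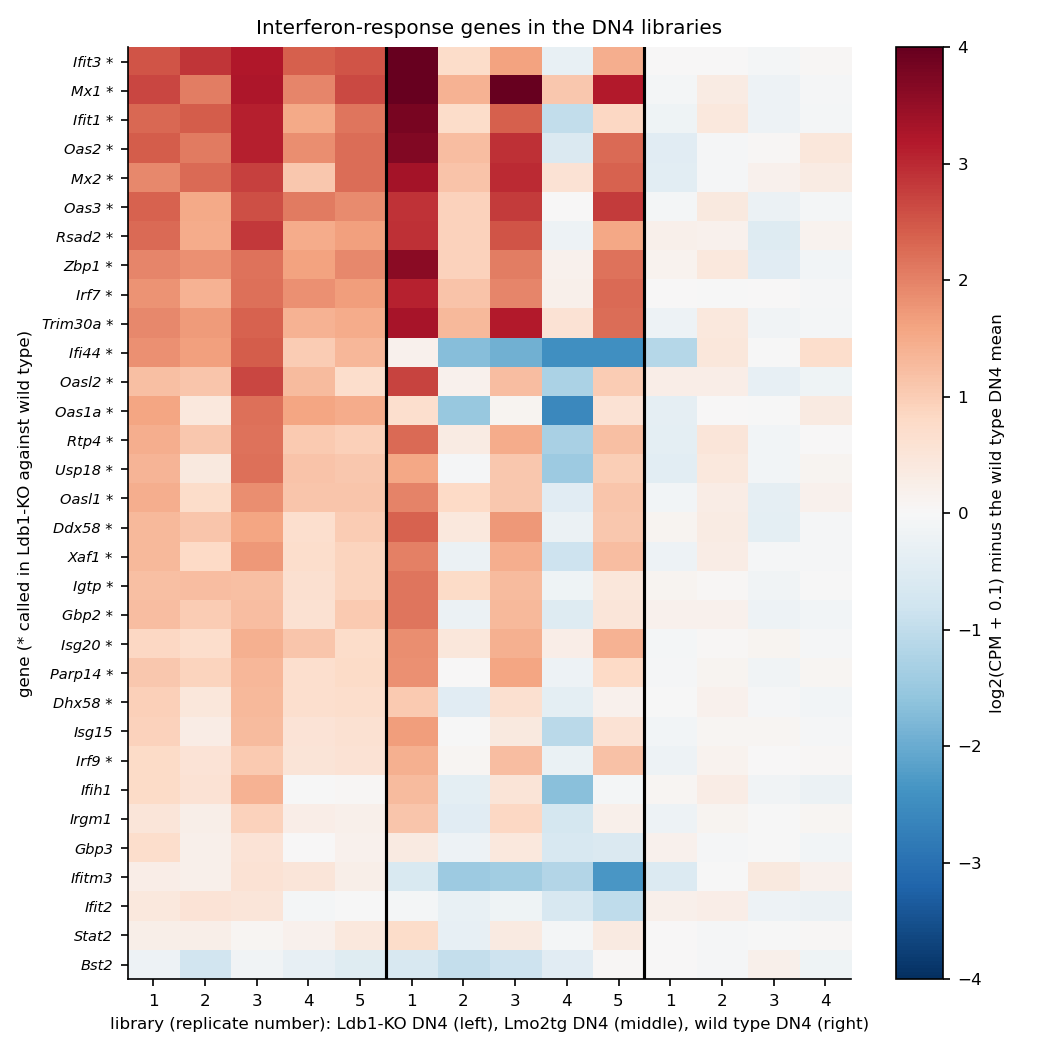
Heat map of log2(CPM + 0.1) minus the wild type DN4 mean for 32 of the 33 interferon-response genes (rows; a star marks genes called between Ldb1-KO and wild type) in each DN4 library (columns: Ldb1-KO left, Lmo2tg middle, wild type right). The Ldb1-KO columns lie mostly above the wild type mean, with the strongest colour in replicate 3, while the Lmo2tg columns differ widely among themselves.

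Components of the class I antigen presentation pathway, which interferon also raises, had a lower list median than the interferon genes. That difference was not tested. In the list of 20, 9 rose and 2 fell (median log2 fold change 0.37; 18.2% of all genes rose and 14.4% fell). Nlrc5, the transactivator of class I genes, had 58.0 to 80.4 CPM in Ldb1-KO DN4, 17.0 to 149 CPM in Lmo2tg DN4 and 19.7 to 21.6 CPM in wild type DN4 (log2 fold change 1.70 ± 0.35, edgeR adjusted p = 0.00134). B2m, the invariant light chain, had 722, 643, 1068, 722 and 731 CPM in Ldb1-KO DN4 and 379 to 449 CPM in wild type DN4 (log2 fold change 0.92 ± 0.22, edgeR adjusted p = 0.00324). H2-Q10, a class Ib gene, was called at under 1 CPM in all groups. The 2 falls were the immunoproteasome subunits Psmb8 and Psmb10, at −0.35 and −0.40 on the log2 scale, and 0 falls were left without Ldb1-KO replicate 2 or 3 or wild type replicate 1 or 3.

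Genes by which T cells home and leave the thymus rose steeply. Of 21 homing and egress genes 15 rose and 0 fell (median log2 fold change 1.30; 18.2% of all genes rose and 14.4% fell). Ldb1-KO replicates 1 to 3 alone gave 14 rises and replicates 4 and 5 alone 10. Cd69, an early activation antigen that retains thymocytes by pulling S1pr1 off the surface, had 45.8, 38.4, 34.0, 49.7 and 48.8 CPM in Ldb1-KO DN4, 47.6 to 158 CPM in Lmo2tg DN4 and 4.06, 4.20, 5.49 and 3.41 CPM in wild type DN4. All Ldb1-KO libraries were alike and far above wild type, and the upper ones passed the lowest Lmo2tg library (log2 fold change 3.34 ± 0.39, edgeR adjusted p = 7.96e-07). S1pr1, the sphingosine receptor that guides exit into blood, had 24.3, 26.9, 17.1, 26.8 and 33.3 CPM in Ldb1-KO DN4, 7.71 to 69.0 CPM in Lmo2tg DN4 and 1.38, 2.63, 0.523 and 1.78 CPM in wild type DN4. It rose by 4.02 ± 0.74 (log2, edgeR adjusted p = 0.000420), and the value between Ldb1-KO and Lmo2tg DN4 was −0.10 ± 0.59 (log2, edgeR adjusted p = 0.944). Klf2, the factor that drives S1pr1, had 26.2 to 64.2 CPM in Ldb1-KO DN4 and 6.00 to 12.8 CPM in wild type DN4 (log2 fold change 2.30 ± 0.38, edgeR adjusted p = 0.000138). Itgb7, an integrin chain for gut homing, had 46.6 to 119 CPM in Ldb1-KO DN4 and 8.45 to 14.1 CPM in wild type DN4 (log2 fold change 3.02 ± 0.50, edgeR adjusted p = 0.000142).

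The Gimap GTPases, which support survival of T cells leaving the thymus, behaved likewise, with 6 of 8 higher and 0 lower (median log2 fold change 1.43). The shares over all genes were 18.2% higher and 14.4% lower. Gimap8 had 111, 116, 86.9, 70.6 and 118 CPM in Ldb1-KO DN4, 31.4 to 311 CPM in Lmo2tg DN4 and 10.1, 19, 7.85 and 9.51 CPM in wild type DN4 (log2 fold change 3.11 ± 0.54, edgeR adjusted p = 0.000228). Gimap3 had 18.2 to 56.0 CPM in Ldb1-KO DN4 and 1.28 to 3.17 CPM in wild type DN4 (log2 fold change 3.97 ± 0.75, edgeR adjusted p = 0.000562). In both genes Ldb1-KO libraries lay within the Lmo2tg range and did not overlap with wild type. With Ldb1-KO replicates 1 to 3 alone 6 Gimap genes were higher, and with replicates 4 and 5 alone 3.

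Markers of more mature T cells and of handling moved with these genes. Of 10 mature T cell markers 9 were higher and 0 lower, and their summed level was 834 to 1057 CPM in Ldb1-KO DN4, 880 to 2381 CPM in Lmo2tg DN4 and 313 to 448 CPM in wild type DN4. Klf2, S1pr1, Ccr7, Itgb7 and Cd69 are among those that are also in the homing list. Sums here and below run over all list members in the count table. Of all genes tested, 18.2% were called higher and 14.4% lower. Of 11 double-positive markers 6 were higher and 0 lower, with sums of 1616 to 3854 CPM in Ldb1-KO DN4 and 1606 to 1743 CPM in wild type DN4. Cd4 had 68.9, 329.3, 23.6, 25.9 and 97.8 CPM in Ldb1-KO DN4, 13.4 to 422 CPM in Lmo2tg DN4 and 12, 4.08, 4.90 and 4.36 CPM in wild type DN4. Cd8a had 281, 713, 136, 186 and 305 CPM in Ldb1-KO DN4 and 57.5, 19.7, 27.2 and 29.9 CPM in wild type DN4. All Ldb1-KO libraries were above wild type for both coreceptor genes, and replicate 2 was the highest for each. Rag1, another double-positive marker, had 280, 853, 323, 258 and 383 CPM in Ldb1-KO DN4 and 542 to 619 CPM in wild type DN4. It was not called, and all Ldb1-KO libraries but replicate 2 lay below wild type. Without Ldb1-KO replicate 2, 1 double-positive marker was called lower. Of 19 immediate early and heat shock genes, which dissociation of tissue can also induce, 16 were higher and 0 lower, with sums of 1530.0 to 4098 CPM in Ldb1-KO DN4 and 827 to 1399.8 CPM in wild type DN4. Without wild type replicate 4 the count of these was 10, and with Ldb1-KO replicates 1 to 3 alone 9. Nr4a3, a nuclear receptor induced by antigen receptor signals, had 17.2 to 48.4 CPM in Ldb1-KO DN4 and 0.888 to 2.29 CPM in wild type DN4. The part of these markers in the rise of the homing, Gimap and coreceptor genes was not tested.

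A list of Cdk inhibitors, Btg and Tob genes and related factors was mostly higher. The number of replication genes called lower depended on which libraries entered the fit. A list of 15 genes held 7 Cdk inhibitors, 3 Btg and 2 Tob genes and the transcription factors Klf2, Foxo1 and Foxo3, of which Klf2 is also in the homing and mature T cell lists. Of these 15, 11 were higher and 1 lower (median log2 fold change 1.19; 18.2% of all genes were higher and 14.4% lower). Cdkn1b, the inhibitor p27, had 115, 164.0, 114, 112 and 114 CPM in Ldb1-KO DN4, 90.2 to 175 CPM in Lmo2tg DN4 and 66.2, 57.8, 48.8 and 44.6 CPM in wild type DN4. It rose by 1.19 ± 0.15 (log2, edgeR adjusted p = 4.23e-06) with no overlap between Ldb1-KO and wild type. Btg1, an antiproliferative regulator of mRNA decay, had 164 to 387 CPM in Ldb1-KO DN4 and 34.6 to 56.7 CPM in wild type DN4 (log2 fold change 2.46 ± 0.33, edgeR adjusted p = 7.63e-06). Tob1, of the same family, had 29.1 to 36.5 CPM in Ldb1-KO DN4 and 11.6 to 14.1 CPM in wild type DN4 (log2 fold change 1.37 ± 0.20, edgeR adjusted p = 3.90e-05). Cdkn2a, the Ink4a-Arf locus, averaged 0.682 CPM in Ldb1-KO, 6.36 CPM in Lmo2tg and 0.0509 CPM in wild type DN4. Cdkn2d had 45.2 to 58.8 CPM in Ldb1-KO and 29.1 to 41.0 CPM in wild type DN4. Cdkn2c overlapped between these groups (75.9 to 103 and 70.5 to 98.0 CPM), as did Cdkn1c (1.18 to 2.67 and 0.913 to 1.76 CPM). Cdkn2b stood at 0 to 0.292 CPM in Ldb1-KO DN4 and had no count in wild type DN4. The member that was lower, Cdkn1a or p21, had 0.999 to 3.51 CPM in Ldb1-KO DN4 and 3.08 to 9.19 CPM in wild type DN4, and lost its call without Ldb1-KO replicate 2 or wild type replicate 3.

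Of 32 DNA replication genes 0 rose and 2 fell, Rfc2 and Fen1, both of which share sequence with other genes (13.4% and 71.9% of stretches), with a list median log2 fold change of −0.38. For 23 of the 32 all Ldb1-KO libraries lay below all wild type libraries (16.4% of all genes). A fit of the 9 libraries alone called 25 of the 32 lower. That fit called more genes in all, 2885 lower and 3247 higher of 13266 tested. DESeq2 called 5 of the 32 lower, and fits that each left out a DN4 library of either group called 1 to 4. Fen1 lost its call in 7 of the 9 fits that left out a DN4 library of either group. In mitosis 0 of 27 genes were called, with a median of −0.14, and 7 were lower and 1 higher from the 9 libraries alone. Mki67, a marker of dividing cells, had 1162 to 1617 CPM in Ldb1-KO DN4 and 1460.0 to 1727 CPM in wild type DN4 (log2 fold change −0.19 ± 0.21, edgeR adjusted p = 0.521). In the same lists Lmo2tg DN4 against wild type had 30 of 32 replication genes and 23 of 27 mitosis genes lower (23.5% of all genes), and both comparisons share the wild type libraries. Between Ldb1-KO and Lmo2tg DN4 the log2 fold change of Mki67 was 0.61 ± 0.20 (edgeR adjusted p = 0.0389). Among 15 G1 cyclins and kinases 2 rose, Rb1 and Rbl2 of the retinoblastoma family, and 3 fell, Cdk4, E2f3 and Cdc25a. These are 13.3% and 20% of the list, near the 18.2% higher and 14.4% lower over all genes. Rbl2 and Cdk4 share 13.55% and 14.48% of their stretches with other genes. Rb1 had 95.3 to 180.4 CPM in Ldb1-KO DN4 and 66.3 to 80.8 CPM in wild type DN4 (log2 fold change 1.01 ± 0.20, edgeR adjusted p = 0.000820).

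Many growth and biosynthesis genes fell. Ldb1-KO replicates 1 to 3 alone gave 13 of 26 Myc and ribosome, 11 of 22 cholesterol and 9 of 21 glycolysis genes lower, and the 2 shallower replicates alone 2, 1 and 0. The 14 DN4 libraries alone gave 8, 7 and 6. The list of Myc and ribosome biogenesis had 18 of 26 members lower and 3 higher (median log2 fold change −0.53, beside 14.4% of all genes called lower). Myc itself had 219, 188, 225, 270.1 and 204 CPM in Ldb1-KO DN4, 136 to 367 CPM in Lmo2tg DN4 and 427, 402, 512 and 467 CPM in wild type DN4. It fell by 1.03 ± 0.19 on the log2 scale (edgeR adjusted p = 0.000399), with no overlap between Ldb1-KO and wild type. Nop2, a ribosomal RNA methyltransferase, had 108 to 156 CPM in Ldb1-KO DN4 and 189 to 253 CPM in wild type DN4 (log2 fold change −0.76 ± 0.17, edgeR adjusted p = 0.00268). The 3 members that rose were Mycn, a Myc paralogue, and the Myc antagonists Mxd1 and Mxd4. Mycn had 3.56 to 5.78 CPM in Ldb1-KO DN4 and 1.33 to 2.37 CPM in wild type DN4 (log2 fold change 1.33 ± 0.22, edgeR adjusted p = 0.000144).

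Cholesterol synthesis had 12 of 22 members lower and 1 higher (median log2 fold change −0.47). For this list and glycolysis below, the shares over all genes were 14.4% lower and 18.2% higher. Lss, lanosterol synthase, had 29.9, 28.2, 34.1, 34.5 and 33.3 CPM in Ldb1-KO DN4, 21.5 to 52.6 CPM in Lmo2tg DN4 and 58.1, 58.7, 68.7 and 65.8 CPM in wild type DN4. The Ldb1-KO libraries were tightly grouped at about the middle of the Lmo2tg range and below all wild type libraries (log2 fold change −0.97 ± 0.17, edgeR adjusted p = 0.000278). The member that rose, Idi1, shares 21.8% of its stretches with other genes. Glycolysis had 8 of 21 lower and 1 higher (median −0.24): Pfkl, a phosphofructokinase, had 64.4 to 112 CPM in Ldb1-KO and 132 to 195 CPM in wild type DN4, and Ldha, lactate dehydrogenase, 745 to 1035 CPM in Ldb1-KO and 1144 to 1464 CPM in wild type DN4. Slc16a3, a lactate exporter, was the member that rose, at 2.89 to 5.48 CPM in Ldb1-KO and 1.12 to 1.90 CPM in wild type DN4.

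**Figure D4:**
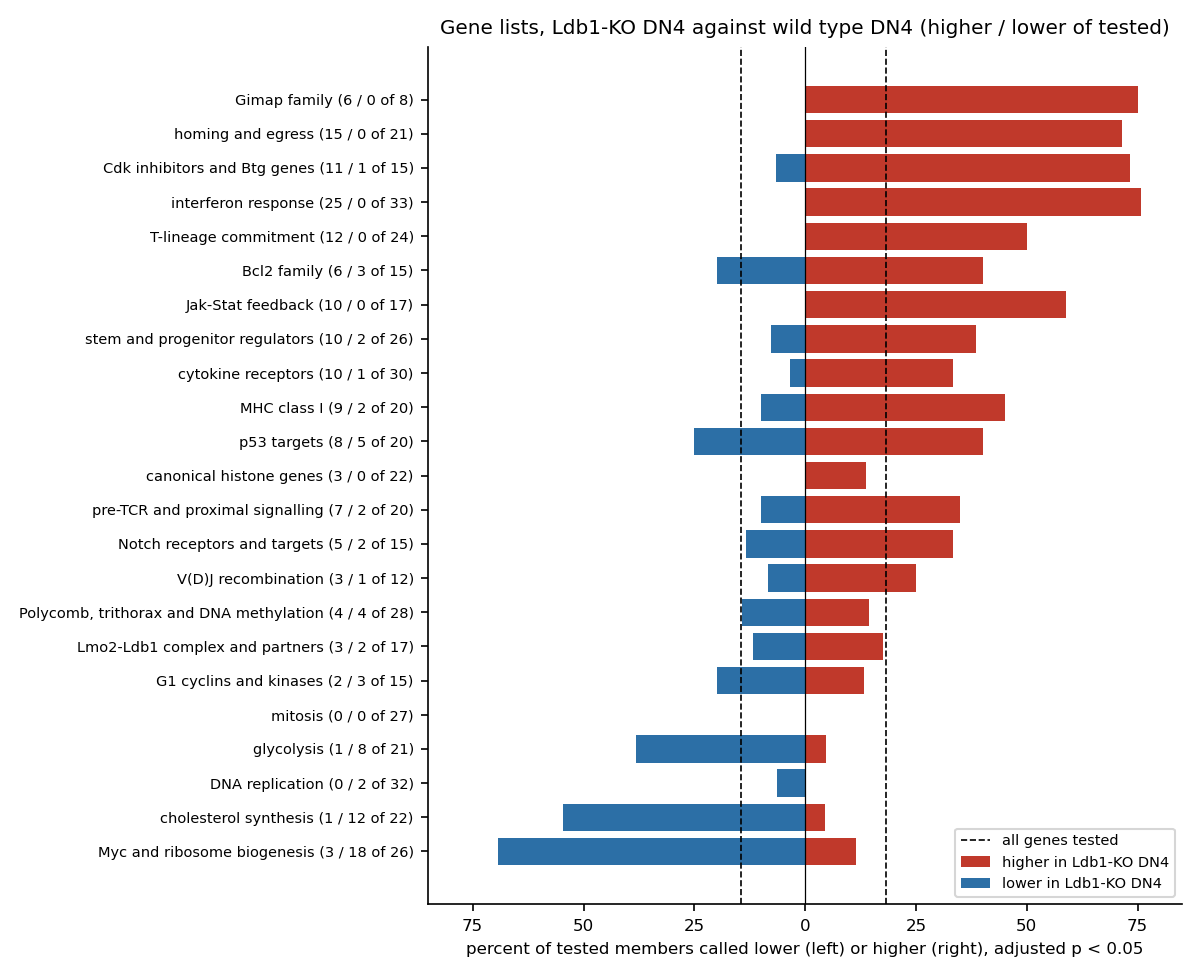
Percent of the tested members of 23 gene lists called higher (right) or lower (left) in Ldb1-KO DN4 against wild type DN4, ordered by the list's median log2 fold change, with dashed lines at 18.2% higher and 14.4% lower over all genes tested. The Gimap (6 of 8), homing (15 of 21), Cdk inhibitor and Btg (11 of 15) and interferon (25 of 33) lists reach furthest right, and Myc and ribosome biogenesis has 18 of 26 lower.

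Cytokine receptors and their signalling genes rose in part. Of 30 receptors 10 were higher and 1 lower, and of 17 Jak-Stat feedback genes 10 were higher and 0 lower (medians 0.53 and 0.65; 18.2% of all genes were higher and 14.4% lower). Without wild type replicate 1 or 3 the count for Jak-Stat genes was 6. Il2rb, the shared beta chain for interleukins 2 and 15, had 51.3, 45.2, 35.8, 23.8 and 97.5 CPM in Ldb1-KO DN4, 4.69 to 151 CPM in Lmo2tg DN4 and 4.98 to 10.7 CPM in wild type DN4 (log2 fold change 2.60 ± 0.59, edgeR adjusted p = 0.00263). Il4ra, a chain of the interleukin-4 receptor, had 8.93 to 49.6 CPM in Ldb1-KO and 2.84 to 4.92 CPM in wild type DN4. Ifngr1, the interferon-gamma receptor chain, stood apart from the transgenic controls: 409, 396, 405, 325 and 354 CPM in Ldb1-KO DN4, 206 to 288 CPM in Lmo2tg DN4 and 241, 259, 188 and 166 CPM in wild type DN4. Its log2 fold change was 0.83 ± 0.16 against wild type (edgeR adjusted p = 0.000762) and 0.65 ± 0.15 against Lmo2tg (edgeR adjusted p = 0.00385). Il7r, the receptor Lmo2tg cells hold at 107.9 CPM, averaged 30.4 CPM in Ldb1-KO and 43.8 CPM in wild type DN4 (edgeR adjusted p = 0.265). Bcl6, a repressor and Stat target, had 24.2 to 81.6 CPM in Ldb1-KO DN4 and 6.82 to 10.2 CPM in wild type DN4 (log2 fold change 2.55 ± 0.41, edgeR adjusted p = 0.000106), and the kinase Pim1 rose by 0.97 ± 0.15 (log2, edgeR adjusted p = 5.01e-05).

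In the Bcl2 family of survival and death genes 6 of 15 rose and 3 fell, beside 18.2% and 14.4% of all genes. Bcl2, the founding survival factor, had 63.8 to 93.7 CPM in Ldb1-KO DN4, 31.2 to 138 CPM in Lmo2tg DN4 and 24.3 to 40.7 CPM in wild type DN4 (log2 fold change 1.30 ± 0.25, edgeR adjusted p = 0.000712). Bmf, a proapoptotic BH3-only protein, had 34.1 to 52.7 CPM in Ldb1-KO DN4 and 16.2 to 24.9 CPM in wild type DN4 (log2 fold change 1.13 ± 0.18, edgeR adjusted p = 8.90e-05). The executioners Bax and Bak1 and the sensitizer Bad had log2 fold changes of −0.47, −0.30 and −0.46, and 0 of the 3 calls were left without Ldb1-KO replicate 2 or 3 or wild type replicate 1 or 3. A list of 20 tested genes held p53 targets and Trp53, the gene of p53 itself. Of these 20, 8 rose, among them Trp53inp1 and Fas, and 5 fell, among them Trp53 and Cdkn1a (18.2% and 14.4% of all genes). Trp53inp1 had 268 to 629.9 CPM in Ldb1-KO DN4 and 94.2 to 190.3 CPM in wild type DN4 (log2 fold change 1.71 ± 0.34, edgeR adjusted p = 0.000829). The count of p53 list members called higher was 5 without wild type replicate 3. The count called lower was 2 without Ldb1-KO replicate 2, and also moved by over 1.5 times without Ldb1-KO replicate 1 or wild type replicate 3.

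Genes of T-lineage identity were higher or did not pass the test. Of 24 T-lineage commitment genes 12 were higher and 0 lower (median log2 fold change 0.69; 18.2% of all genes were higher and 14.4% lower). With Ldb1-KO replicates 4 and 5 alone 6 were higher. Bcl11b, Tcf7 and Gata3 were among those that did not pass the test, at log2 fold changes of 0.21, −0.02 and 0.07. Cd5, an inhibitory receptor whose level follows receptor signalling, had 177, 173, 84.8, 97.7 and 223 CPM in Ldb1-KO DN4, 73.3 to 405 CPM in Lmo2tg DN4 and 43.8, 37.6, 33.6 and 26.3 CPM in wild type DN4 (log2 fold change 2.10 ± 0.34, edgeR adjusted p = 0.000113). Cd6, its neighbour and relative, had 169 to 268 CPM in Ldb1-KO DN4 and 62.0 to 126 CPM in wild type DN4. Neither gene overlapped between Ldb1-KO and wild type, and both are also among the mature T cell markers. Thy1, of the T-lineage list, lay lower without a call. It had 1595 to 1833 CPM in Ldb1-KO and 1873 to 2282 CPM in wild type DN4, with no overlap. Ikzf2, the Ikaros family factor Helios, had 230.0 to 410.2 CPM in Ldb1-KO DN4 and 81.9 to 137 CPM in wild type DN4 (log2 fold change 1.62 ± 0.30, edgeR adjusted p = 0.000505).

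In the pre-TCR list 7 of 20 were higher (18.2% of all genes) and 2 lower (14.4% of all genes). Ptcra, the invariant pre-TCR alpha chain, averaged 56.5 CPM in Ldb1-KO, 25.9 CPM in Lmo2tg and 60.9 CPM in wild type DN4 (log2 fold change against wild type −0.11 ± 0.28, edgeR adjusted p = 0.790). Rasgrp1, the Ras activator downstream of the receptor, had 328 to 576 CPM in Ldb1-KO DN4 and 188 to 265 CPM in wild type DN4 (log2 fold change 1.08 ± 0.18, edgeR adjusted p = 0.000182). Syk, the kinase that signals beside Zap70 at the pre-TCR stage, had 32.9 to 39.9 CPM in Ldb1-KO DN4, 26.7 to 43.8 CPM in Lmo2tg DN4 and 47.2 to 63.6 CPM in wild type DN4 (log2 fold change −0.66 ± 0.11, edgeR adjusted p = 0.000246). Without Ldb1-KO replicate 2, wild type replicate 3 or wild type replicate 4 the pre-TCR count of rises changed by over 1.5 times, to as few as 4. Of 12 V(D)J recombination genes 3 rose, with small log2 fold changes of 0.39 to 0.65 (Xrcc4, Lig4 and Dclre1c; 18.2% of all genes rose and 14.4% fell), and Dntt, which adds untemplated bases at the joints, fell by 0.30 (edgeR adjusted p = 0.0478). In this list 0 rises were left without Ldb1-KO replicate 2 or 3 or wild type replicate 1, 3 or 4, and the fall was lost in 6 of the 9 fits that each left out a library.

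Of 15 Notch receptors and targets 5 rose and 2 fell (18.2% and 14.4% of all genes), and the receptors Notch1, Notch2 and Notch3 did not pass the test. Dtx1, a ubiquitin ligase and Notch target, had 69.4, 87.8, 66.8, 163 and 114 CPM in Ldb1-KO DN4, 51.4 to 129.8 CPM in Lmo2tg DN4 and 18.6, 15.7, 28.3 and 18.3 CPM in wild type DN4 (log2 fold change 2.31 ± 0.35, edgeR adjusted p = 5.04e-05). All Ldb1-KO libraries were above all wild type libraries. Hes5, another target, fell by 0.89 ± 0.30 (log2, edgeR adjusted p = 0.0273), beside Myc, and 1 of these 2 falls was left without Ldb1-KO replicate 1, 2 or 3 or wild type replicate 3. Among 17 genes of the Lmo2-Ldb1 complex and its partners, Lmo2, Lyl1 and Ssbp2 rose and Ldb1 and Ssbp4 fell. These are 17.6% and 11.8% of the list, near the 18.2% and 14.4% over all genes. The fall of Ssbp4 was lost without Ldb1-KO replicate 2 or 3 or wild type replicate 1 or 3. Ssbp2, a single-stranded DNA-binding protein that shields Ldb1 from turnover, had 66.9 to 109 CPM in Ldb1-KO DN4, 33.2 to 65.8 CPM in Lmo2tg DN4 and 53.1 to 61.7 CPM in wild type DN4 (log2 fold change 0.52 ± 0.14, edgeR adjusted p = 0.00827). Tal1, the classical partner, was at or near 0 in all 3 groups, with means of 0.0252 CPM in Ldb1-KO, 0.109 CPM in Lmo2tg and 0.0368 CPM in wild type DN4.

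Of 28 Polycomb, trithorax and DNA methylation genes 4 rose and 4 fell, and of 22 canonical histone genes 3 rose and 0 fell, shares near or below the 18.2% higher and 14.4% lower over all genes. Without wild type replicate 3 the chromatin list had 1 rise and 2 falls, and without Ldb1-KO replicate 5 it had 2 falls. Dnmt3b, a de novo DNA methyltransferase, had 31.2 to 47.9 CPM in Ldb1-KO DN4, 34.2 to 64.6 CPM in Lmo2tg DN4 and 50.2 to 65.8 CPM in wild type DN4 (log2 fold change −0.64 ± 0.14, edgeR adjusted p = 0.00212). Cbx2, a reader subunit of Polycomb repressive complex 1, fell by 0.52 ± 0.14 (log2, edgeR adjusted p = 0.00801). The histone genes Hist1h4h and Hist1h2bg share 38.4% and 44.8% of their stretches with other histone genes.

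A few genes changed in Ldb1-KO DN4 against both other groups in the same direction. By the rule used (called against wild type and against Lmo2tg alike, with no overlap of libraries and at least 5 CPM in the higher group) there were 9 such rises and 12 falls. Mllt4 (also Afdn, the junction protein afadin) had 32.9, 17.6, 42.2, 9.06 and 8.19 CPM in Ldb1-KO DN4, 0.846 to 4.65 CPM in Lmo2tg DN4 and 2.46, 3.83, 2.58 and 2.16 CPM in wild type DN4. The log2 fold change was 3.00 ± 0.51 against wild type (edgeR adjusted p = 0.000209) and 3.24 ± 0.48 against Lmo2tg (edgeR adjusted p = 4.11e-05). Ptms, the small acidic protein parathymosin, had 62.1 to 86.3 CPM in Ldb1-KO DN4, 23 to 39.9 CPM in Lmo2tg DN4 and 19.1 to 31.2 CPM in wild type DN4. Iigp1, an interferon-inducible GTPase, had 5.59 to 23.6 CPM in Ldb1-KO DN4, 0.144 to 4.12 CPM in Lmo2tg DN4 and 1.4 to 2.00 CPM in wild type DN4. Depdc1a, a mitotic factor, had 51.4 to 105 CPM in Ldb1-KO and 25.3 to 36.5 CPM in wild type DN4, with 51.5% of its stretches found elsewhere. Crim1, a membrane regulator of bone morphogenetic proteins, had 5.33 to 15.9 CPM in Ldb1-KO and 1.03 to 3.62 CPM in wild type DN4, and lost its call without Ldb1-KO replicate 4 or wild type replicate 1 or 4.

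Falls of this kind besides Ldb1 were moderate. Il9r, the interleukin-9 receptor, had 12, 7.01, 10.9, 13.2 and 7.69 CPM in Ldb1-KO DN4, 16.4 to 51.7 CPM in Lmo2tg DN4 and 25, 23, 29.4 and 22.9 CPM in wild type DN4. The Ldb1-KO libraries were below all others (log2 fold change against wild type −1.30 ± 0.31, edgeR adjusted p = 0.00326). Smim5 had 5.16 to 9.54 CPM in Ldb1-KO DN4, 12.3 to 44.2 CPM in Lmo2tg DN4 and 14.5 to 17.2 CPM in wild type DN4. Acot5, a peroxisomal acyl-CoA thioesterase, had 0.602 to 4.22 CPM in Ldb1-KO and 4.47 to 6.28 CPM in wild type DN4, and Phlda3, a p53-induced repressor of Akt, 2.43 to 4.67 CPM in Ldb1-KO and 5.20 to 5.83 CPM in wild type DN4. Phlda3 lost its call without Ldb1-KO replicate 1 or 2.

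The change from wild type was next set beside that of the stage before. At DN2/3, 1374 genes (9.56%) were called in Ldb1-KO against wild type, 1003 higher (6.98%) and 371 lower (2.58%). The difference between the DN4 and the DN2/3 effect passed the test for 31 genes (0.216%), 26 in the positive (0.181%) and 5 in the negative direction (0.0348%), while 2051 genes had an unadjusted p below 0.05. Without single libraries it passed for 5 to 41 genes in the positive and 1 to 10 in the negative direction, the fewest positive ones without wild type DN4 replicate 1 or 4 and the most without Ldb1-KO DN4 replicate 4. Same-numbered libraries of the stages deviated together within each genotype. Same-numbered Ldb1-KO and Lmo2tg DN4 libraries, of different genotypes, did so too in replicates 3 and 4 (correlations of 0.338 and 0.294). Whether the stages are paired is therefore not certain. With the replicate number within genotype as a block, 2811 genes passed (19.6%), 1468 positive (10.2%) and 1343 negative (9.35%), and these held 31 of the 31 called without it.

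Alas2, the erythroid enzyme of heme synthesis, had 4.21, 17.0, 17.1, 17.5 and 28.2 CPM in Ldb1-KO DN4 and 0.630 to 0.761 CPM in wild type DN4, but averaged 1.22 ± 0.381 CPM (SD, n = 5) in Ldb1-KO DN2/3 and 0.779 ± 0.0853 CPM (SD, n = 4) in wild type DN2/3. The effect at DN4 exceeded that at DN2/3 by 3.96 ± 0.58 on the log2 scale (edgeR adjusted p = 0.00153, and 0.000133 with the block). The globin genes Hba-a2, Hbb-bs and Hbb-bt had no count in Ldb1-KO DN4. Hba-a1 had some count there and none in Lmo2tg or wild type DN4. Bach2, a repressor that holds lymphocytes in a resting state, had 23.6, 24.1, 22.4, 17.4 and 22.9 CPM in Ldb1-KO DN4, 19.1 to 74.0 CPM in Lmo2tg DN4 and 2.93 to 4.89 CPM in wild type DN4. At DN2/3 it averaged 28.8 CPM in Ldb1-KO and 24.7 CPM in wild type, near the Ldb1-KO DN4 level and above wild type DN4. Bmf was at 60.3 CPM in Ldb1-KO DN2/3 and 69.2 CPM in wild type DN2/3, both above the highest Ldb1-KO DN4 library. Gpr183, an oxysterol receptor that guides migration, had 1.61 to 6.17 CPM in Ldb1-KO DN4 and 0.152 to 0.601 CPM in wild type DN4, against 1.36 CPM in Ldb1-KO and 2.22 CPM in wild type DN2/3.

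Arid5a, an RNA-binding regulator, and Lypd6b had log2 fold changes of 1.14 and 1.57 at DN4 and of −0.37 and −0.48 at DN2/3, with a difference between stages of 1.51 and 2.04 (edgeR adjusted p = 0.00122 and 0.0161). Pde2a, a cyclic nucleotide phosphodiesterase, differed between stages by 3.17 ± 0.57 (log2, edgeR adjusted p = 0.0161), but another gene overlaps 64.3% of it and the library kit does not mark strand. Lmo2 also differed, by 2.32 ± 0.50 (log2, edgeR adjusted p = 0.0418): it averaged 45.4 CPM in Ldb1-KO DN4 and 30.5 CPM in Ldb1-KO DN2/3, against 0.0778 CPM in wild type DN4 and 0.272 CPM in wild type DN2/3.

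With the block, 25 of 33 interferon genes had a larger effect at DN4 and 0 a smaller one (median difference 1.01, log2). For Ifit3 the log2 fold change was 2.88 at DN4 and 0.76 at DN2/3, with a blocked difference of 2.13 (edgeR adjusted p = 0.0227, against 0.259 without the block). Mitosis genes differed the other way in 21 of 27, and Myc and ribosome genes in 17 of 26, with 3 of the 26 in the positive direction (9.35% of all genes negative and 10.2% positive). Without the block, the mitosis list had a median log2 fold change of −0.14 at DN4 and 0.46 at DN2/3. The Myc and ribosome list had −0.53 at DN4 and −0.05 at DN2/3. Mature T cell markers differed in 0 of 10 (median 0.01), and S1pr1 had log2 fold changes of 4.02 at DN4 and 4.80 at DN2/3. Ldb1 had log2 fold changes of −3.81 at DN4 and −2.38 at DN2/3. Ldb1-KO DN2/3 libraries averaged 98.1 ± 26.9 CPM (SD, n = 5), against 511 ± 39.5 CPM (SD, n = 4) in wild type DN2/3. The blocked difference of −1.73 had an edgeR adjusted p of 0.00644.

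**Figure D5:**
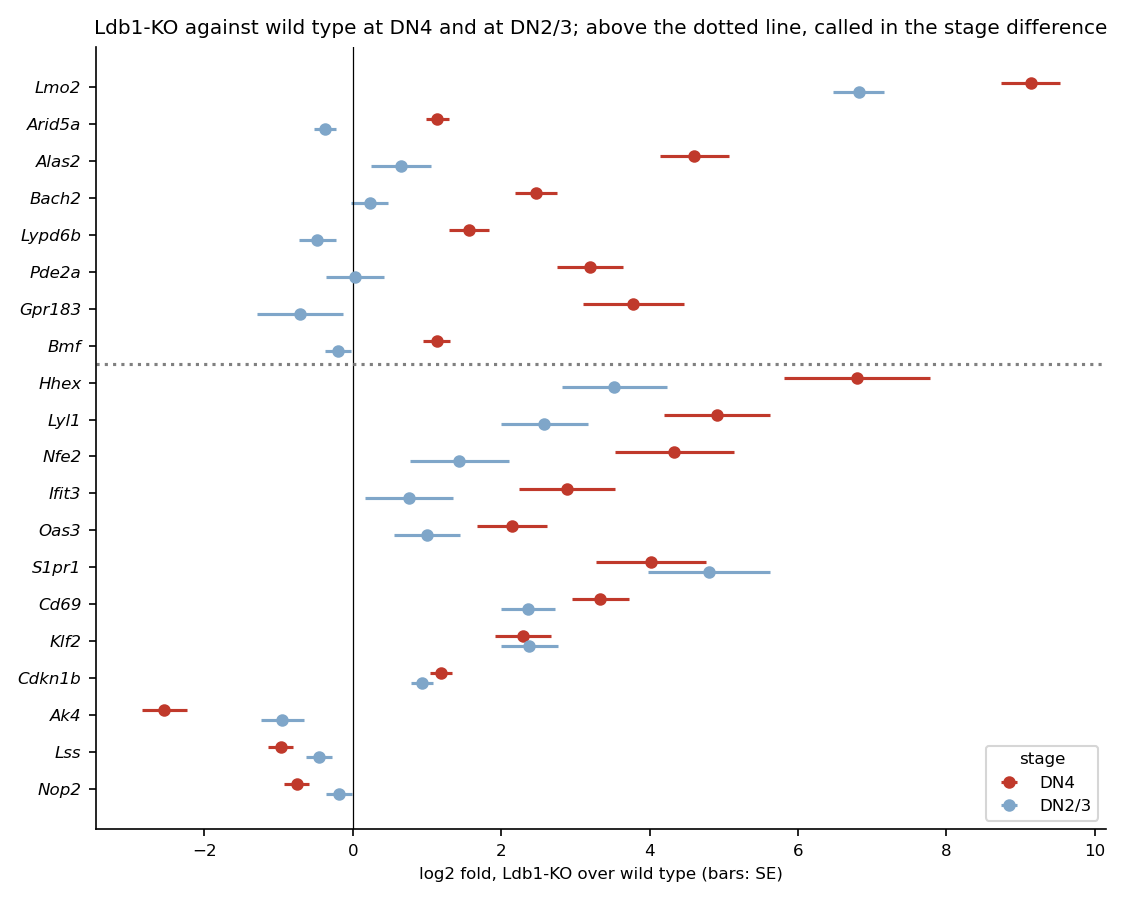
Log2 fold change of Ldb1-KO over wild type (points; bars show SE) at DN4 and at DN2/3 for 20 genes; genes above the dotted line were called in the difference between stages without the replicate block. Arid5a, Lypd6b, Gpr183 and Bmf lie right of 0 at DN4 and left of 0 at DN2/3, while S1pr1, Klf2 and Cdkn1b have like values at both stages.

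Markers of other cells that the sort could hold were summed in each library. The counts of called markers stand beside 18.2% of all genes called higher and 14.4% called lower, and several lists are short. B cell markers had 6 of 12 higher, with sums of 15.5 to 26.1 CPM in Ldb1-KO DN4, 15.2 to 125.6 CPM in Lmo2tg DN4 and 12.2 to 15.7 CPM in wild type DN4, where Pax5 had no count. Myeloid markers had 3 of 9 higher (1 without Ldb1-KO replicate 2 or wild type replicate 1 or 4), with sums of 8.77 to 13.6 CPM in Ldb1-KO and 7.26 to 9.53 CPM in wild type DN4, and Elane had no count in either group. Of 3 tested mast cell and basophil markers Cpa3 alone was higher, with sums of 3.13 to 371 CPM in Ldb1-KO and 2.21 to 5.82 CPM in wild type DN4, and Fcer1a and Mcpt4 had no count in either group. NK and innate lymphoid markers had 7 of 12 higher (4 without wild type replicate 1 or 3) and 1 lower, with lower sums of 214 to 409 CPM in Ldb1-KO DN4 against 376 to 526 CPM in wild type DN4. Within that list Id2 and Rora rose by 2.01 and 2.56 (log2), and Gzma was at 233 CPM in Ldb1-KO and 436 CPM in wild type DN4. The gamma-delta T cell list had 2 of 5 higher, Maf and Cd163l1, with sums of 75.7 to 1536 CPM in Ldb1-KO and 101 to 232 CPM in wild type DN4, and 1 of 5 higher without Ldb1-KO replicate 3, 4 or 5 or wild type replicate 1 or 3. Cd163l1, a scavenger receptor of gamma-delta T cells, had 405, 44.5, 173, 1358 and 191 CPM in Ldb1-KO DN4 and 42.7 to 97.9 CPM in wild type DN4, and was not called without Ldb1-KO replicate 4. The dendritic cell list had 3 of 10 higher and 0 lower, with sums of 328 to 519 CPM in Ldb1-KO and 212 to 281 CPM in wild type DN4. Among them Cd74, the class II invariant chain, was at 4.17 to 17.5 CPM in Ldb1-KO and 0.415 to 1.08 CPM in wild type DN4. Progenitor markers had 4 of 12 higher (Kit, Lyl1, Hhex and Lmo2), with sums of 136 to 252 CPM in Ldb1-KO and 81.5 to 144 CPM in wild type DN4. The rise of Lmo2 is that of the transgene. Without Lmo2 the sums were 142, 97.2, 211, 145 and 90.6 CPM in Ldb1-KO replicates 1 to 5 and 81.5 to 144 CPM in wild type DN4, with replicates 1, 2 and 5 inside the wild type range. The erythroid list had Alas2 as its 1 call of 5, with sums of 362 to 487 CPM in Ldb1-KO and 283 to 345 CPM in wild type DN4. Megakaryocyte markers had 0 of 2 called, with sums of 1.88 to 3.34 CPM in Ldb1-KO and 1.94 to 3.76 CPM in wild type DN4. Thymic stroma markers had 0 of 7 higher and 1 lower (Cdh5, with no count in Ldb1-KO DN4), with sums of 122 to 158 CPM in Ldb1-KO and 90.2 to 124 CPM in wild type DN4. The part of any of these cells in the results was not tested.

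The changes were also laid out along the chromosomes. In 881 windows of 1 Mb with at least 6 tested genes, 6 had more genes called by over 2-fold than not, beside 10.7% of all genes. On chromosome 7 between 104 and 105 Mb, 15 of 16 tested genes rose by over 2-fold, a run of olfactory receptors, ubiquilin genes and Trim antiviral genes. Trim30a there, a restrainer of innate signalling, had 71.9, 62.0, 97.2, 50.3 and 53.2 CPM in Ldb1-KO DN4, 28.6 to 189 CPM in Lmo2tg DN4 and 16.5, 25.6, 17.1 and 18 CPM in wild type DN4 (log2 fold change 1.79 ± 0.40, edgeR adjusted p = 0.00205). Its neighbour Ubqlnl had 2.82, 0, 2.01, 2.70 and 0.405 CPM in Ldb1-KO DN4, 2.07 to 38.2 CPM in Lmo2tg DN4 and no count in wild type DN4. The Ldb1-KO mean was 148-fold over a floor of 3 counts across all wild type DN4 libraries. That figure covers counting error only, and Ldb1-KO replicate 2 had no count, like wild type. Other dense windows were chromosome 3 between 106 and 107 Mb (6 of 7 genes) and chromosome 1 between 173 and 174 Mb (7 of 10), which holds the interferon-inducible Ifi200 genes such as Ifi204 and Mndal. Within 10 Mb of Ldb1, 19 of 149 other tested genes were higher (18.2% of all genes) and 38 lower (14.4% of all genes), which is 38.3% called, beside 32.6% of all genes. Against Lmo2tg DN4, 5 of these 149 were higher (5.85% of all genes) and 21 lower (8.71% of all genes).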

How the data were processed

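The deposited table holds counts of read pairs or reads per gene symbol (24421 symbols, 28 libraries), made by the authors with STAR 2.5.2a and featureCounts 1.4.6-p3 on mm10, per the submitters' processing notes. Per the labels' protocols, libraries were made with a TruSeq RNA V2 kit, which does not mark strand, and read as pairs of 101 bases. The annotation, strand setting and treatment of multiple matches are not recorded there, so genes that share sequence or overlap are uncertain. Each column was joined to the sample whose description gives its library name.

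Genes were filtered by filterByExpr by group, scaled by TMM and tested with edgeR 4.0.16 (limma 3.58.1, R 4.3.3): glmQLFit (robust) over all 28 libraries in 6 groups and glmQLFTest per contrast, two-sided, Benjamini-Hochberg over 14371 genes, called below 0.05. SE is the absolute log2 fold change over the root of F. The script was tested on simulated data. No replicate pair within a group agreed within sampling noise: chi-square over degrees of freedom was 27.9 or more. Total counts bound counting error only.

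The members and lists were chosen with earlier results of these data known. Named genes are Lmo2 and Ldb1; the 10 largest rises and falls without overlap of libraries and with 5 CPM or more in the higher group; 5 per direction also called against Lmo2tg DN4; 5 with the smallest adjusted p between stages; and the 2 called members of each list with the smallest adjusted p. A few genes that this rule or the lists hold are not reported here. Other named list members, markers and neighbours were chosen after their values were seen. Sequence sharing was counted over stretches of 101 bases in GENCODE M21 transcripts, which matched 13830 tested symbols, and 512 more matched by RefSeq name. Promoters are RefSeq's for GRCm38.p6.

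Same-numbered Ldb1-KO and wild type DN4 libraries did not deviate together (correlations of 0.015, 0.038, −0.101 and −0.021). Same-numbered DN4 and DN2/3 libraries did, at 0.289 to 0.531 in Ldb1-KO and 0.153 to 0.332 in wild type. The stages were therefore also fitted with the replicate number within genotype as a block. Same-numbered Ldb1-KO and Lmo2tg DN4 libraries had −0.075 to 0.338, so values of this size do not settle a pairing. Alternatives tried were other scaling (RLE, upper quartile), no filter or 5 CPM in 4 libraries, DESeq2 1.42.0, the libraries in the fit, a replicate block, and each library left out.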

Additional observations from a re-analysis of the deposited data

Results flagged for a closer look

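In 20 of 230 groups of 4 or 5 libraries checked, 1 library stood apart from the rest of its group. The limits used flag about 1 in 20 groups of normally distributed values, which CPM near 0 are not. A single library with counts beside others without any is flagged in every case, so no conclusion is drawn from the total. Of the libraries that stood apart, Ldb1-KO DN4 replicates 1 to 5 were 0, 3, 3, 3 and 1, and wild type DN4 replicates 1 to 4 were 1, 3, 3 and 3.

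In Ldb1-KO DN4, replicate 2 was the high library for Adam12 (23.2 CPM, next 7.29), Cdkn1b (164.0 CPM, next 115) and Cd4 (329.3 CPM, next 97.8), the last a coreceptor gene of the following stage. Replicate 3 was high for Iigp1 (23.6 CPM, next 9.99), Hoxa9 (8.45 CPM, next 2.7) and B2m (1068 CPM, next 731). Replicate 4 was high for Crim1 (15.9 CPM, next 7.66) and Cd163l1 (1358 CPM, next 405) and low for Bach2 (17.4 CPM, next 22.4). Replicate 5 was low for Arhgap32 (2.93 CPM, next 4.55). Without replicate 4 neither Crim1 nor Cd163l1 was called, and the other 8 genes were.

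In wild type DN4, replicate 4 had 0.0507 CPM of Clec4e, of Adam12 and of Apol7b, where the other 3 libraries had no count. Replicate 3 was high for H2-Q10 (0.0951 CPM, next 0.0127) and Cdk4 (765.4 CPM, next 702) and low for Rsad2 (1.47 CPM, next 2.42). Replicate 2 was high for Gpr183 (0.601 CPM, next 0.205), Trim30a (25.6 CPM, next 18) and Id2 (4.05 CPM, next 3.62), and replicate 1 for Cd4 (12 CPM, next 4.9).

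The effect of Ldb1-KO against wild type differed between DN4 and DN2/3 for 8 named genes, by the edgeR test of that difference (log2, DN4 minus DN2/3): Lmo2 by 2.32, Arid5a by 1.51, Alas2 by 3.96, Bach2 by 2.24, Lypd6b by 2.04, Pde2a by 3.17, Gpr183 by 4.49 and Bmf by 1.33. All 8 had a positive difference, and their edgeR adjusted p ranged from 0.00122 (Arid5a) to 0.0418 (Lmo2).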

How the results depend on the processing

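Ldb1-KO against wild type DN4 gave 4739 calls with RLE, 4674 with upper-quartile scaling, 4295 with no filter, 4014 with 5 CPM in 4 libraries, 5265 with DESeq2 and 6132 from the 9 libraries alone. With the replicate block it gave 5562, which held 4588 of the 4680, although same-numbered libraries were not paired. The 14 DN4 libraries alone gave 1707 higher and 876 lower (115 lower by over 2-fold), 38 list members lower against 68, and 806 genes lower than in Lmo2tg DN4. The 2 shallower Ldb1-KO libraries alone gave 844 higher and 151 lower, 699 and 42 by over 2-fold, and 68 and 7 list members against 154 and 68. The 9 libraries alone gave 123 list members lower. A minimum of 5 CPM left 766 higher and 96 lower by over 2-fold, among fewer genes tested. At DN2/3, 18 libraries gave 2053 and 1387 and the replicate block 1508 and 941. The stage difference had 212 positive and 68 negative calls with DESeq2, 949 and 788 from 18 libraries, 110 and 24 with a common replicate block and 1468 and 1343 with the replicate block by genotype. Except where stated, the cause was not tested.

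Leaving out 1 library gave 1653 to 2765 genes higher and 1202 to 2263 lower at DN4 (1052 to 1377 and 148 to 238 by over 2-fold), fewest without wild type replicate 3 and most without Ldb1-KO replicate 4. List members numbered 107 to 158 higher and 42 to 71 lower. DN2/3 gave 604 to 1042 higher and 160 to 364 lower, fewest higher without wild type DN2/3 replicate 1 and fewest lower without it or Ldb1-KO DN2/3 replicate 3. The stage difference gave 5 to 41 positive and 1 to 10 negative calls. Over all settings, 2172 values of named genes kept direction and call, 100 lost the call and 0 reversed. The 2 shallower libraries alone lost 41 of them. The other lost calls included those of Kit, Meis1, Crim1, Cd8b1, Dclre1c, Xrcc4, Fen1, Satb1, Phlda3, Cdkn1a, Fam163b, Cd163l1, Cdk4, Acot5, Lhfpl2 and Wdfy4. At 67.8 to 81.7 M counts in wild type DN4 libraries, levels near 0, such as that of Clec4e, rest on few reads.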
